A study of Mus musculus with 6 samples.

Results

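The genes examined here were 10 transcripts used as markers of stromal fibroblasts: Pdgfra, Pdgfrb, Dcn, Lum, Dpt, Fap, Postn, Cxcl12, Pdpn and Mfap5. They were taken by symbol from the 22310 genes of the deposited table, and all 10 were found in it. They were measured in mammary tumor cells of MMTV-PyMT mice on an FVB/N background, in which the mouse mammary tumor virus promoter drives the polyoma middle T oncogene in mammary epithelium. The labels give the genotype as WT and no treatment besides the sort. Tumors were digested, and the cells were plated in medium with 2% serum, 10 µg/ml insulin and 20 ng/ml EGF and sorted 1 day later. Cells bearing Ter119, CD31 or CD45 (Lin) were depleted. The remaining CD24+ cells were divided by CD90 into metastasis-initiating cells (MICs), which are CD90+, and non-MICs, which are CD90-, and each population has 3 libraries. The labels give neither the age of the mice nor the tumor behind each library, and the study describes such replicates as independent experiments or tumors. Libraries with the same replicate number are called pair 1, pair 2 and pair 3. A p-value sets the difference between populations against the spread between these libraries. Where the replicate number is used as a block, it sets it against the spread of the differences within pairs.

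Fibroblasts are the stromal cells that build the collagenous matrix of the mammary gland and of its tumors. They carry receptors for platelet-derived growth factors, encoded by Pdgfra and Pdgfrb, and secrete small leucine-rich proteoglycans such as decorin and lumican, which bind collagen fibrils. They also bear CD90, the protein of Thy1, on their surface, and none of the 3 proteins used for the depletion marks them. Both populations were also gated as CD24+, and how far fibroblasts pass that gate was not tested. Several genes of the set are not restricted to fibroblasts, since periostin (Postn), podoplanin (Pdpn) and the chemokine CXCL12 are also known from myoepithelial or other cells.

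Postn, Cxcl12 and Pdpn made up between 75.3% and 98.2% of the reads of all 10 genes in a library, and all 3 were higher in MICs in each pair. Postn, which encodes a matrix protein that binds integrins, had the largest log2 fold change, 2.50. Both receptor genes had between 45 and 376 reads in a library. Dcn, Lum, Dpt, Fap and Mfap5, a grouping chosen after their values were seen, had at most 81 reads each in a library. Together they took 2.56, 0.477 and 2.67 RPM (recovered reads scaled to 1000000 per library) in MICs of pairs 1, 2 and 3. In non-MICs they took 2.57, 0.242 and 0.521 RPM. The ranges of the populations overlapped, while MICs were higher in pair 2, on 15 reads against 8, and in pair 3, on 138 against 26. No gene of the set had all MIC libraries above or all below the non-MIC libraries, an arrangement found in 2.69% and 3.55% of all genes of the table.

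Promoter sequences are shown for the 3 abundant genes, because these genes were higher in MICs in each pair on at least 109 reads in every library. They come from RefSeq (GRCm38.p6), whose table held a start for 5 of the 10 genes, and cover the 250 bases before the start, 5′ to 3′ on the gene's strand. The Postn window is chr3:54360857-54361106 (+), the Cxcl12 window chr6:117168285-117168534 (+) and the Pdpn window chr4:143299565-143299814 (-). Capitals mark matches, on either strand, to a TATA motif (TATAAA), an Sp1 motif (GGGCGG) or an E-box (CANNTG).
Postn: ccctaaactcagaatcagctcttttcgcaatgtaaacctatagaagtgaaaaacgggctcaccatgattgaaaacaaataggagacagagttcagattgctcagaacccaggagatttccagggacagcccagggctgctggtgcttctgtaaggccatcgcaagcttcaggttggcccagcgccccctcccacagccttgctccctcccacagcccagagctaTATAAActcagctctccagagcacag
Cxcl12: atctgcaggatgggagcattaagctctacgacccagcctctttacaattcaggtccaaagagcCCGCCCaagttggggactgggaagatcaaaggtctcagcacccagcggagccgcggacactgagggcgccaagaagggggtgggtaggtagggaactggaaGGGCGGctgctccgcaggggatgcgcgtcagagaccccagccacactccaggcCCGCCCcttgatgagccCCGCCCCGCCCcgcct
Pdpn: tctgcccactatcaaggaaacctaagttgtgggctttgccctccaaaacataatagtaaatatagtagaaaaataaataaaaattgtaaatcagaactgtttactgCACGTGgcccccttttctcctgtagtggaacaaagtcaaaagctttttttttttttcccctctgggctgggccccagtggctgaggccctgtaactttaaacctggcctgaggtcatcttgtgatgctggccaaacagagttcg
Postn had 1 TATA match, beginning at position -26 from the start, and no match to the other letters searched. Its other RefSeq start, further upstream, had none at all. Cxcl12 had 5 Sp1 matches, of which the last 2 overlap by 1 base, and Pdpn had 1 E-box. Among 32851 promoter windows of this length, 12.4% held a TATA match, 32.7% an Sp1 match and 66.2% an E-box. No window of the 3 genes held an AP-1 motif (TGANTCA, in 6.75% of all windows), a TEAD motif (CATTCC, in 12.6%) or a CArG box (in 1.47%). A match describes the letters in these windows only.

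Depth was between 31467281 and 51759769 recovered reads per library, and replicate 3 was the deepest in both populations. Thy1, the gene of the sorting marker, had 1399, 271 and 1117 reads in MICs of pairs 1, 2 and 3, against 16, 20 and 18 in non-MICs, the direction that the labels give. Single genes were tested with limma on log2(value + 1), with adjustment over all 22310 genes, and fold changes of scarce genes are understated on this scale. Without a block, no gene of the table had an adjusted p under 0.05 (0.0% in either direction), and 322 (1.44%) had an unadjusted p under 0.05, none of them a member of the set. Same-numbered libraries departed from their group means together, and with the replicate number as a block 0.121% of all genes were called higher in MICs and 0.00896% lower, and 11.2% had an unadjusted p under 0.05. The edgeR quasi-likelihood test on recovered reads, with the same block, called 1.04% higher and 0.372% lower, and without it called 0.0%, with 295 genes at an unadjusted p under 0.05. Of the 10 genes, limma with the block called 1 higher (Postn) and 0 lower, and edgeR with the block called 4 higher (Postn, Cxcl12, Pdpn and Dcn) and 0 lower. DESeq2 with the block called 2 of the 10 higher (Postn and Cxcl12) and 0 lower, beside 0.493% and 0.103% of all genes. In bulk RNA, fewer cells of a type cannot be told apart from less RNA per cell.

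**Figure D1:**
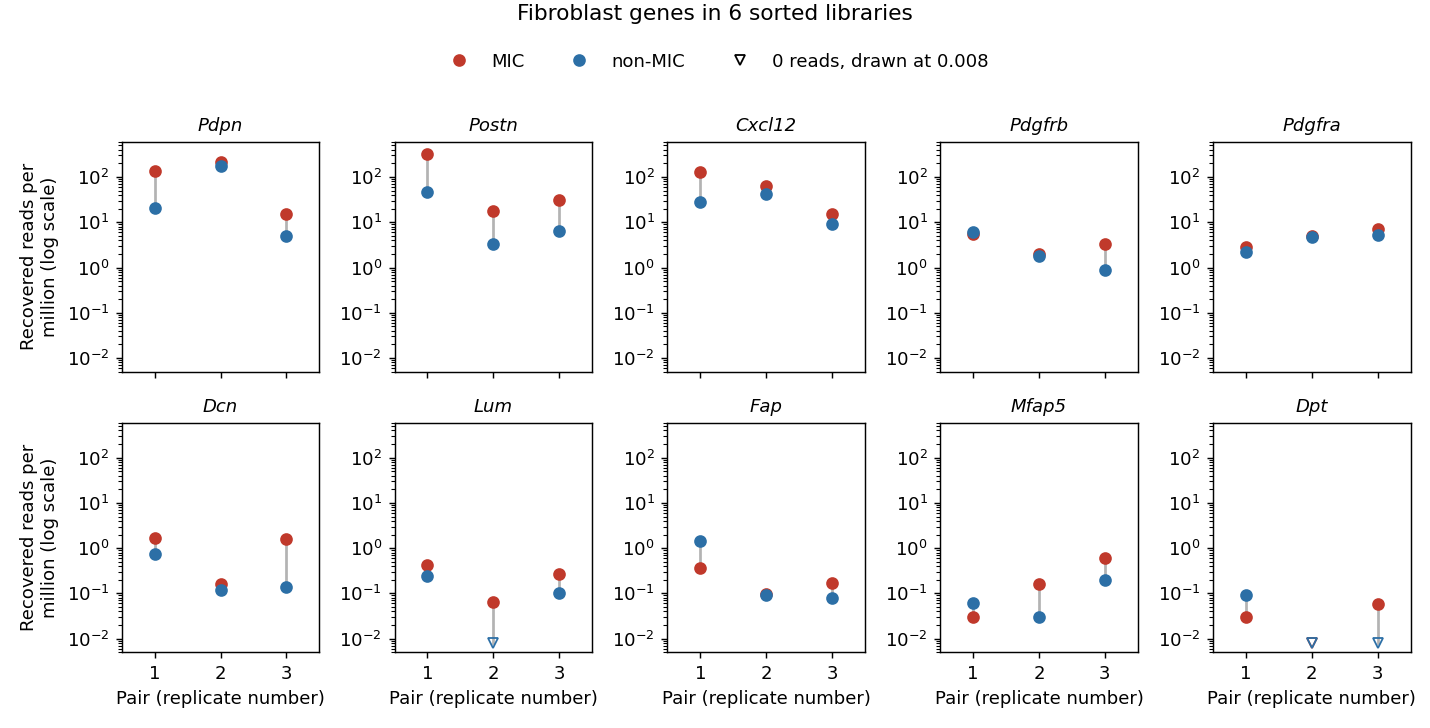
Recovered reads as RPM (log axis) of the 10 genes in each of the 6 libraries, with pairs 1 to 3 on the x axis, MICs in red, non-MICs in blue and a grey line joining a pair. Triangles mark 0 reads. Pdpn, Postn and Cxcl12 are the highest in most libraries, though Pdgfra is above Postn in the non-MIC library of pair 2 (154 against 109 reads) and above Pdpn in that of pair 3 (263 against 248), and for Pdpn both libraries of pair 2 stand above all others.

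Among the genes with a log2 fold change above 1, periostin differed by the most similar amount from pair to pair. Postn (ENSMUSG00000027750, chromosome 3, 54361109 to 54391037) had 10688, 572 and 1592 reads in MICs of pairs 1, 2 and 3, against 1574, 109 and 322 in non-MICs. The MIC library was higher in each pair, while the levels of the pairs were so far apart that the non-MIC library of pair 1 was above the MIC library of pair 2. The ratio of RPM values, MIC over non-MIC, came to 6.92 for pair 1 (95% exact interval 6.56 to 7.30), 5.52 for pair 2 (4.49 to 6.84) and 4.77 for pair 3 (4.23 to 5.39). These intervals, from the exact binomial distribution of the reads of a pair, cover counting error only, since no molecular identifiers were used and reads are not independent molecules.
On the log2 scale, Postn averaged 10.96 ± 2.23 for MICs (SD, n = 3) and 8.46 ± 2.00 for non-MICs (SD, n = 3). The fold change of 2.50 had a standard error of 1.27 in limma without the block (adjusted p = 1) and of 0.18 with it (adjusted p = 3.25e-05). It was called in limma with the block without pair 1 (adjusted p = 0.000548) and without pair 2 (adjusted p = 0.000263). Without pair 3 limma called no gene of the table, and Postn had an adjusted p of 0.453 and a log2 fold change of 2.62, with 2274 genes at an unadjusted p under 0.05. edgeR with the block called it in all 3 of these cases, with adjusted p-values between 1.47e-22 and 8.29e-13.

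CXCL12, the ligand of CXCR4 and ACKR3, is a chemokine by which stromal cells attract leukocytes and tumor cells. Cxcl12 (ENSMUSG00000061353, chromosome 6, 117168535 to 117181367) had 4189, 2002 and 788 reads in MICs and 934, 1424 and 449 in non-MICs. The ratio was largest in pair 1, at 4.57 (4.26 to 4.91), and was 1.48 (1.38 to 1.59) in pair 2 and 1.69 (1.51 to 1.90) in pair 3, so the pairs differed in size but not in direction. The log2 fold change of Cxcl12, 1.17, had a standard error of 0.84 in limma without the block (adjusted p = 1) and of 0.26 with it (adjusted p = 0.181). edgeR with the block gave an adjusted p of 3.74e-06, and without pair 1 it did not call the gene (log2 fold change 0.64, adjusted p = 1).
Podoplanin is a mucin-like membrane glycoprotein that fibroblasts, lymphatic endothelium and basal epithelial cells can carry. Pdpn (ENSMUSG00000028583, chromosome 4, 143267431 to 143299564) had 4374, 6671 and 787 reads in MICs and 674, 5955 and 248 in non-MICs. Both libraries of pair 2 were above every library of the other pairs, and there the populations were close. The Pdpn ratio of pair 1 was 6.61 (6.10 to 7.18), that of pair 2 was 1.18 (1.14 to 1.22) and that of pair 3 was 3.06 (2.65 to 3.54). The log2 fold change of Pdpn, 1.52, had a standard error of 1.40 in limma without the block (adjusted p = 1) and of 0.33 with it (adjusted p = 0.15). edgeR with the block called it (adjusted p = 1.69e-09), and without pair 1 did not (log2 fold change 0.88, adjusted p = 0.62). Limma with the block called it without pair 2, where the log2 fold change rose to 2.17 (adjusted p = 0.00402).

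**Figure D2:**
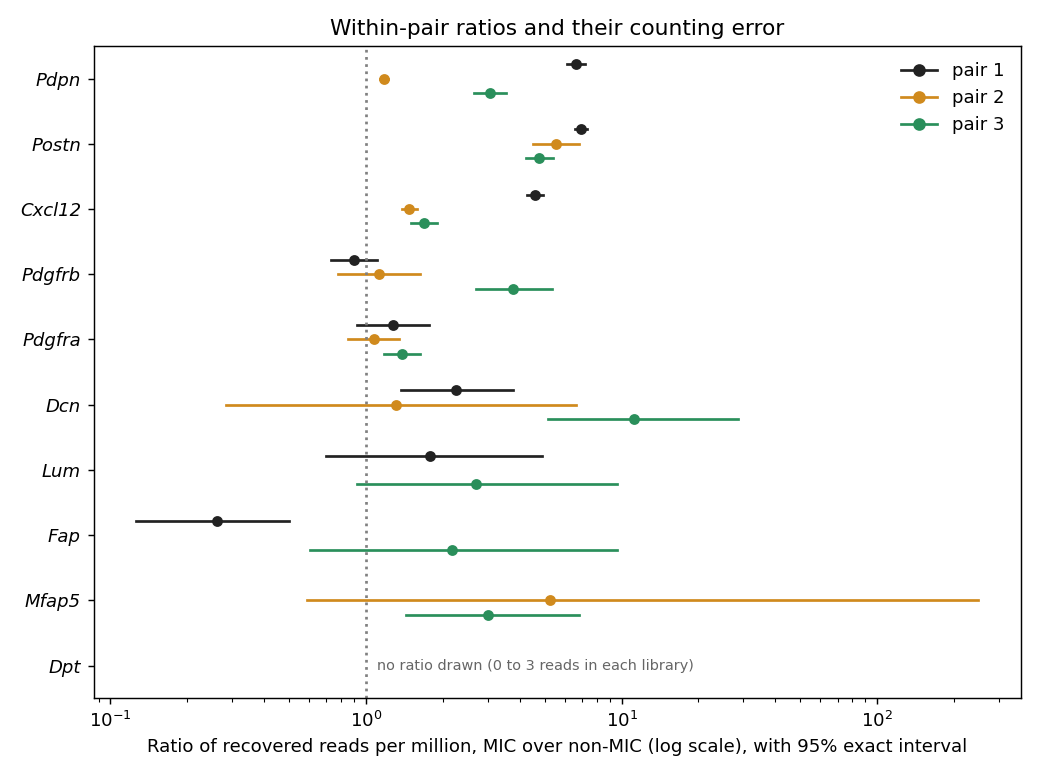
Ratio of RPM values, MIC over non-MIC (log axis), of each gene in pair 1, pair 2 and pair 3, with the 95% exact interval from counting as a horizontal line and a dotted line at a ratio of 1. Pairs in which both libraries had 3 reads or fewer are left out, which leaves none for Dpt. The intervals of Postn, Cxcl12 and Pdpn lie above 1 in all 3 pairs, and Fap in pair 1 is the only interval that lies below 1.

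The receptor genes were moderate in level and differed less. Pdgfra, which encodes the receptor used as a marker of most tissue fibroblasts (ENSMUSG00000029231, chromosome 5, 75152292 to 75198215), had 90, 157 and 376 reads in MICs and 72, 154 and 263 in non-MICs. It was slightly higher in MICs in each pair, and the groups overlapped. The ratios were 1.27 (0.924 to 1.76), 1.07 (0.854 to 1.35) and 1.38 (1.17 to 1.62) in pairs 1, 2 and 3, and the interval excluded 1 in pair 3. Its log2 fold change of 0.30 was not called in limma (standard error 0.52, adjusted p = 1) or with the block (standard error 0.25, adjusted p = 0.664).
Pdgfrb, the receptor of fibroblasts and pericytes, on chromosome 18, had 180, 63 and 175 reads in MICs and 204, 59 and 45 in non-MICs. The populations were alike within counting error in pairs 1 and 2, with ratios of 0.899 (0.732 to 1.1) and 1.12 (0.776 to 1.63), and differed in pair 3, with a ratio of 3.75 (2.69 to 5.33). Its log2 fold change was 0.63 (standard error 0.76, limma, adjusted p = 1), and 0.0067 without pair 3 in limma with the block.

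Decorin and lumican belong to one family of small leucine-rich proteoglycans, and their genes lie next to each other on chromosome 10, Dcn from 97479609 to 97518143 and Lum from 97565128 to 97572703. Dcn had 55, 5 and 81 reads in MICs and 25, 4 and 7 in non-MICs. MICs were higher in pair 1, by a ratio of 2.24 (1.37 to 3.75), and in pair 3, by 11.2 (5.18 to 28.6), and in pair 2 the difference was not detectable at this depth, with a ratio of 1.32 (0.283 to 6.63). Dcn had a log2 fold change of 1.57 in limma, with a standard error of 1.09 without the block (adjusted p = 1) and of 0.57 with it (adjusted p = 0.418). edgeR with the block called it (log2 fold change 1.88, adjusted p = 0.0152), and did not without pair 1 (adjusted p = 0.23) or without pair 3 (log2 fold change 0.96, adjusted p = 0.611).
Lum had 14, 2 and 14 reads in MICs and 8, 0 and 5 in non-MICs. Every pair leaned towards MICs, but the intervals of pairs 1 and 3, 0.698 to 4.91 and 0.919 to 9.58, held a ratio of 1. Lum had a log2 fold change of 1.22 (limma, adjusted p = 1, and 0.43 with the block).

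Fap, Mfap5 and Dpt had the lowest average levels per length. Fap, a membrane serine protease known from activated fibroblasts (chromosome 2, 62500943 to 62574075), had 12, 3 and 9 reads in MICs and 47, 3 and 4 in non-MICs. In pair 1 it went the other way from Dcn and Postn, with a ratio of 0.26 (0.126 to 0.498), and its log2 fold change over all pairs was -0.30 (standard error 1.11, limma, adjusted p = 1). Mfap5, a glycoprotein of elastin microfibrils (chromosome 6, 122505845 to 122529290), had 1, 5 and 31 reads in MICs and 2, 1 and 10 in non-MICs, and its interval excluded 1 in pair 3, with a ratio of 2.99 (1.43 to 6.83). Its log2 fold change was 0.85 (standard error 0.98, limma, adjusted p = 1). Dpt, which encodes the matrix protein dermatopontin and marks many fibroblasts of healthy tissue (chromosome 1, 164796644 to 164824266), had 1, 0 and 3 reads in MICs and 3, 0 and 0 in the non-MICs, and no read ratio is given for it. The log2 values of Dpt given further on rest on at most 3 reads in a library.

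Counted over the set, 6 of the 10 genes were higher in MICs in each pair and 0 were lower in each pair, against 12.5% and 18.8% of all genes of the table. For Lum this rests on 2 reads against 0 in pair 2, and for Dcn on 5 against 4. The interval of the read ratio lay above 1 for 4 of the 10 genes in pair 1, 3 in pair 2 and 7 in pair 3, beside 20.2%, 22.5% and 9.74% of all genes. It lay below 1 for 1, 0 and 0 of them, beside 26.5%, 22.1% and 22.4%. The median within-pair difference of the set was 0.56, 0.28 and 1.53 on the log2 scale in pairs 1, 2 and 3, beside medians of -0.02, 0.04 and -0.05 over all genes. A difference above 1 on that scale was found in 4, 3 and 7 of the 10 genes and in 12.0%, 15.3% and 4.06% of all genes. In pair 1 these were Postn, Cxcl12, Pdpn and Dcn. In pair 2 they were Postn, Lum on 2 reads against 0, and Mfap5 on 5 reads against 1. In pair 3 they were Postn, Pdpn, Pdgfrb, Dcn, Lum, Mfap5 and Dpt, the last on 3 reads against 0. A difference below -1 was found in 2 of the 10 genes in pair 1 (Fap, and Dpt on 1 read against 3) and in 0 in pairs 2 and 3, beside 14.5%, 7.06% and 5.56% of all genes.

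Levels of different genes were compared per length, as RPM for each kilobase of annotated exon, averaged over the 6 libraries. The order was Pdpn (52.0), Postn (8.34), Cxcl12 (5.87), Pdgfrb (0.602), Pdgfra (0.451), Dcn (0.127), Lum (0.0754), Fap (0.0657), Mfap5 (0.0501) and Dpt (0.0174). Neighbours in this order had ranges over libraries that overlapped, so it holds for the averages only. Pdpn stood at the 95.8th percentile of all genes of the table by this measure, Postn at the 75.6th and Cxcl12 at the 70.1th, while Dcn, Lum, Fap, Mfap5 and Dpt were below the 30th (29.7 for Dcn and 7.36 for Dpt).
The median level per length was 0.347 in MICs and 0.248 in non-MICs for the 10 genes, and 143 and 155 for 19 luminal epithelial markers. It was 8.31 and 6.52 for 9 basal epithelial markers. For 9 endothelial markers, whose cells the depletion of CD31 should remove, it was 0.0483 and 0.043, and for 9 leukocyte markers 0.272 and 0.169. The averages of Dcn, Lum, Fap, Mfap5 and Dpt, from 0.0174 to 0.127, stand beside these values without a test. Whether the scarce reads came from fibroblasts or from tumor cells was not tested.

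**Figure D3:**
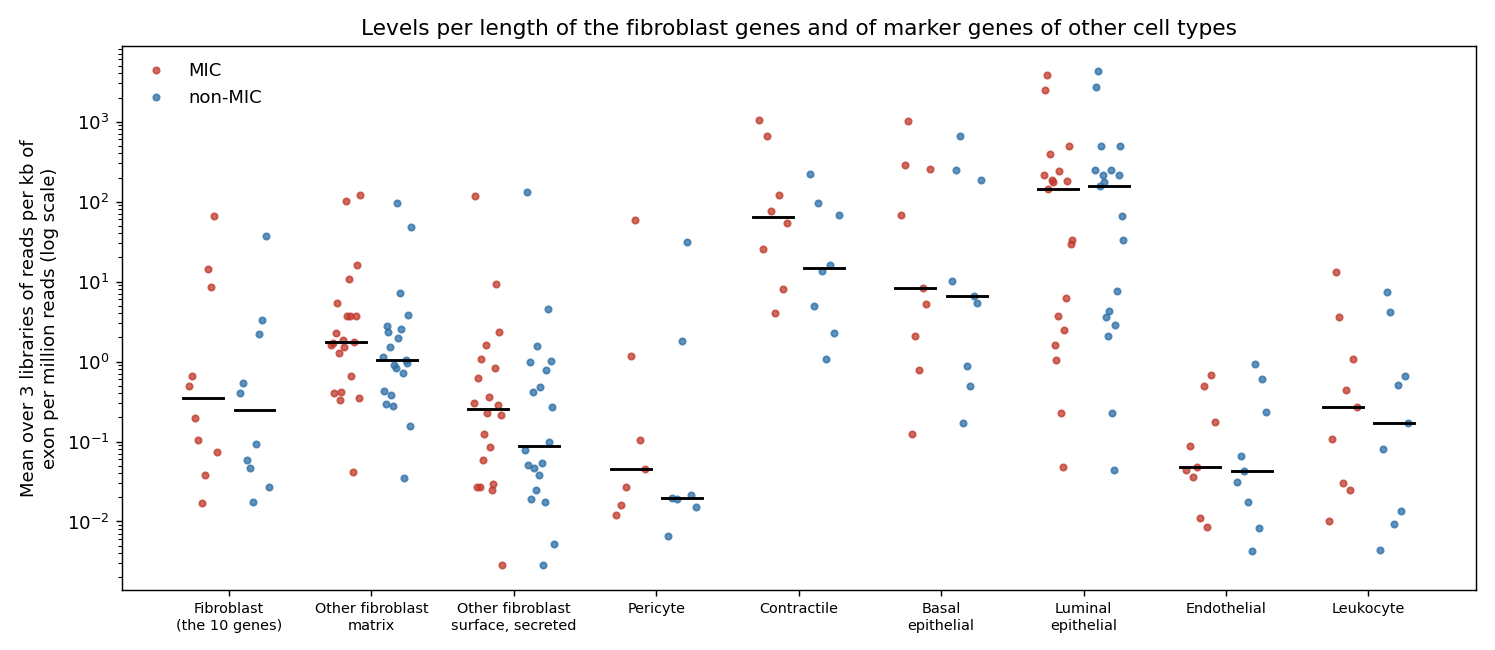
Level per length (RPM for each kilobase of exon, mean over 3 libraries, log axis) of each gene in 9 lists, MICs in red and non-MICs in blue, with a black bar at the median. The median of the 10 fibroblast genes, 0.347 in MICs and 0.248 in non-MICs, lies near that of the leukocyte markers, far under the luminal medians of 143 and 155, and the contractile genes are the list whose medians stand furthest apart.

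Other genes of the fibroblast matrix were read from a list of 21, all of them in the table. Limma with the block called 1 of them higher (Col5a2) and 0 lower, beside 0.121% and 0.00896% of all genes. edgeR with the block called 8 higher and 0 lower, beside 1.04% and 0.372%. In each pair 8 were higher in MICs and 0 were lower, beside 12.5% and 18.8% of all genes. Col5a2, a chain of type V collagen, had 3670, 293 and 1614 reads in MICs and 1779, 126 and 499 in non-MICs, with a log2 fold change of 1.33 (limma with the block, standard error 0.19, adjusted p = 0.0127). Limma with the block did not call Col5a2 without pair 1 (adjusted p = 0.0857) or without pair 3 (adjusted p = 0.453), where it called no gene of the table. edgeR with the block called Col5a2 with any pair left out, with adjusted p-values between 1.23e-06 and 0.000305. Bgn, a proteoglycan related to decorin, had 1642, 4136 and 850 reads in MICs and 1203, 3081 and 162 in non-MICs, and its adjusted p was 0.309 in limma with the block and 9.05e-05 in edgeR with it. The edgeR call on Bgn was lost without pair 3 (adjusted p = 0.252). Sparc, a collagen-binding glycoprotein, had a log2 fold change of 0.93 and Fbln2, of the fibulin family, one of 0.31. Limma with the block called neither, and edgeR with it called Sparc (adjusted p = 0.0072), which was lower in MICs in pair 2 by 0.27 on the log2 scale.
The size of the difference in the matrix genes varied between pairs. Their median within-pair difference was 0.88 for pair 1, -0.08 for pair 2 and 1.65 for pair 3, and 13 of the 21 exceeded 1 in pair 3. Genes chosen after their values were seen show the contrast: Col6a3 was lower in MICs by 1.04 and 1.83 on the log2 scale in pairs 1 and 2 and higher by 3.20 in pair 3, on 121, 9 and 576 reads in MICs and 254, 36 and 59 in non-MICs. Col1a1, Col3a1, Col6a1 and Col6a2 likewise had differences under 0 in pairs 1 and 2 and of 1.65, 2.67, 1.99 and 2.78 in pair 3. Among the 8 higher in MICs in each pair, and also named after their values were seen, were Col1a2, Fstl1 and Ogn. The differences were 1.98, 0.58 and 2.65 for Col1a2, 2.53, 0.25 and 2.03 for Fstl1, and 2.42, 1.77 and 1.07 for Ogn. The last value for Ogn, in pair 3, rests on 6 reads against 2. edgeR with the block called all of them (adjusted p = 7.89e-12, 1.67e-11 and 7.57e-08), and limma with the block called none of them. Without pair 1 the edgeR call on Fstl1 was lost (adjusted p = 0.0617), while that on Col1a2 was kept (adjusted p = 0.000838). Pair 3 is also the pair in which Pdgfrb and Dcn differed most. Whether these differences between pairs exceed what another tumor would show was not tested, since each pair holds 1 library of each population.

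**Figure D4:**
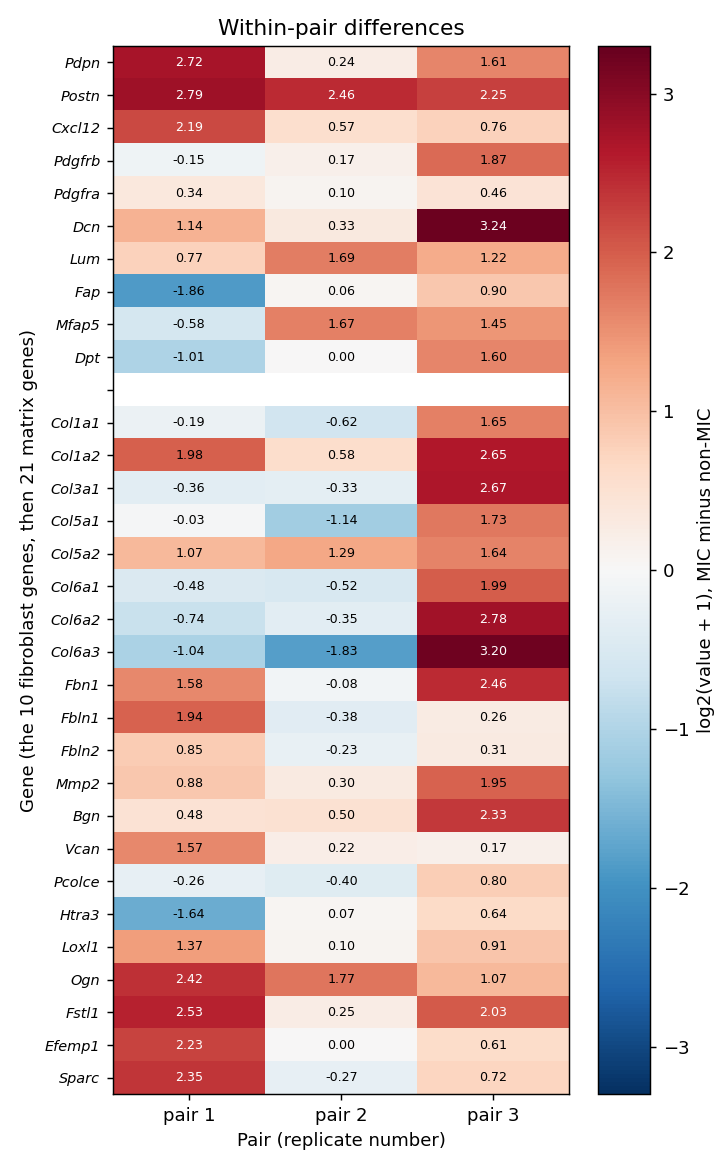
Difference in log2(value + 1), MIC minus non-MIC, in each pair for the 10 fibroblast genes (top, ordered by level) and 21 further matrix genes (bottom), with red for higher and blue for lower in MICs. Postn is between 2.25 and 2.79 in every pair, while Dcn, Pdgfrb and the collagen VI genes are highest in pair 3.

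A list of 23 fibroblast surface, transcription factor and secreted genes had 20 in the table. Limma with the block called none of them, with 7 at an unadjusted p under 0.05 (11.2% of all genes). edgeR with the block called 5 higher and 0 lower, beside 1.04% and 0.372% of all genes. The 5 were Prrx1 and, named after their values were seen, Igf1, Smoc2, Cthrc1 and Cd34. Cd34 was lower in MICs in pair 2, on 3 reads against 6. Its adjusted p was 0.0434 in edgeR and 0.524 in limma, both with the block. Igf1 had 107, 52 and 93 reads in MICs and 6, 23 and 13 in non-MICs (adjusted p = 0.092 in limma and 1.6e-07 in edgeR, both with the block). For 3 of the 20 every MIC library was above every non-MIC library and for 0 every one was below, beside 2.69% and 3.55% of all genes. They were Igf1, Smoc2 and, named after its values were seen, Cygb. Cygb had only 1, 2 and 4 reads in MICs and 0, 0 and 1 in non-MICs. Smoc2 had 48, 11 and 39 reads in MICs and 5, 9 and 5 in non-MICs. Pi16, Tcf21 and Inmt were not in the table. Ly6a (Sca-1), the gene of this list with the most reads, had a log2 fold change of -0.16, and Scara5, a ferritin receptor of fibroblasts, one of -0.47, neither of them called. Prrx1, a homeobox factor of mesenchymal cells, had 980, 61 and 184 reads in MICs and 359, 32 and 105 in non-MICs, higher in each pair, with an adjusted p of 0.259 in limma with the block and 0.00197 in edgeR with it.
Ligands, receptors and partners of the 10 proteins formed a list of 21, with 20 in the table. Limma with the block called none, with 4 at an unadjusted p under 0.05 (11.2% of all genes). edgeR with the block called 2 higher and 0 lower, beside 1.04% and 0.372% of all genes. Pdgfb, a ligand of both receptors, had 13597, 3091 and 7955 reads in MICs and 14215, 4389 and 7115 in non-MICs, a log2 fold change of -0.12. Tnc and Ccn2, genes of matrix proteins and the most abundant of the list, had log2 fold changes of 0.30 and 0.57, and limma and edgeR called neither. The genes of both CXCL12 receptors, named here after their values were seen, were not called by limma or edgeR with the block, with 39, 31 and 78 reads of Cxcr4 in MICs and 20, 7 and 88 in non-MICs, and 92, 105 and 337 reads of Ackr3 in MICs and 88, 172 and 312 in non-MICs.

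Markers of other cells moved with some members. Contractile genes, which smooth muscle, myoepithelial cells and activated fibroblasts share, were 8 in number. Limma with the block called 6 of them higher and 0 lower, beside 0.121% and 0.00896% of all genes. In each pair 7 were higher in MICs and 1 was lower, beside 12.5% and 18.8% of all genes. The one lower was Smtn (smoothelin), among the 3 of the list with the most reads, with differences of -0.40, -0.47 and -0.09 that were not called. Their summed RPM ranged from 429.8 to 12445 in MICs and from 327 to 2619 in non-MICs, and were highest in pair 1, as Postn was. Tagln, an actin-binding protein, had within-pair differences of 2.81, 2.61 and 2.57 and Myh11, smooth muscle myosin, of 2.39, 2.25 and 3.09, beside 2.79, 2.46 and 2.25 for Postn. Acta2, Cnn1, Actg2 and Mylk, also called, had log2 fold changes of 2.42, 2.23, 2.19 and 1.46. Among 9 basal epithelial markers 1, Krt5, was called higher in limma with the block (adjusted p = 0.0121), beside 0.121% of all genes. edgeR with the block called 2 higher, Krt5 and Trp63 (adjusted p = 0.0018, named after its value was seen), and 0 lower, beside 1.04% and 0.372% of all genes. The basal genes with the most reads, Krt17, Krt14 and Sfn, had log2 fold changes of 0.41, -0.10 and 0.18, none called. The sum of the list was between 813 and 5201 RPM in MICs and between 1002 and 2977 in non-MICs. The part of contractile or basal cells in the Postn, Cxcl12 and Pdpn differences was not tested.
Of 10 pericyte markers 7 were in the table, none called in limma with the block (4 at an unadjusted p under 0.05, against 11.2% of all genes). edgeR with the block called 2 higher (Mcam, adjusted p = 0.0241, and Cspg4, adjusted p = 0.000684) and 0 lower, beside 1.04% and 0.372% of all genes. Notch3, the other of the 3 with the most reads, had a log2 fold change of -0.68, with pair differences of -1.46, 0.06 and -0.62 (adjusted p = 0.419 in limma with the block and 0.104 in edgeR). In each pair 4 of the 7 were higher in MICs and 0 were lower, beside 12.5% and 18.8% of all genes. They were Mcam, Cspg4 and, named after their values were seen, Rgs5 and Abcc9. Rgs5 had 2 reads in each library of pair 2, and Abcc9 had 2 in each library of pair 1. There only the scaling to library totals put MICs higher. Cspg4 was higher by 1.71, 1.46 and 2.78, on 44, 12 and 101 reads in MICs and 13, 4 and 13 in non-MICs. Most pericyte reads were of Mcam, which other cells share. Rgs5 did not exceed 2 reads in a library, and Kcnj8, also named after its values were seen, did not exceed 3. Whether pericytes were in either population was not tested. None of the 19 luminal markers was called in limma with the block (3 at an unadjusted p under 0.05, against 11.2% of all genes). edgeR with the block called 0 of them higher and 3 lower, beside 1.04% and 0.372% of all genes. Their sum was between 9640 and 22569 RPM in MICs and between 12444 and 27159 in non-MICs. Krt8, Krt18 and Krt7 had log2 fold changes of -0.17, -0.18 and -0.36. The 9 endothelial markers in the table summed to between 2.69 and 8.42 RPM in MICs and between 2.60 and 11.1 in non-MICs, and the 9 leukocyte markers to between 5.92 and 59.8 and between 6.50 and 35.95, with no call in either list by limma or edgeR with the block and 0 genes at an unadjusted p under 0.05 in limma with the block. Egfl7, Plvap and Esam, the endothelial genes with the most reads, had log2 fold changes of 0.27, -0.31 and -0.43, and Lyz2, Cd68 and Csf1r, those of the leukocyte list, 0.16, -0.31 and -0.25. Pecam1, the gene of CD31, did not exceed 18 reads in a library, and Ptprc, the gene of CD45, did not exceed 14. Of 6 adipocyte markers 3 (Fabp4, Plin1 and Retn) were in the table, none called and none above 8 reads in any library. Of 5 Schwann cell markers limma with the block called none and edgeR 1 lower (Sox10, adjusted p = 0.0496), beside 0.372% of all genes. Mbp had a log2 fold change of -0.31. Cd24a, of the gate shared by both populations, had a log2 fold change of -0.01.

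Genes with a pattern like that of the set were sought among 11196 genes outside the lists with a mean of at least 100 reads. Likeness was the Pearson correlation over the 6 libraries, which form 3 pairs, with the mean log2 value of the 10 genes, and it is given as a description. The 10 most alike were Prune2 (0.963), Epha4 (0.952), Slc25a29 (0.949), Mars2 (0.946), Acta1 (0.945), Vcl (0.942), Myl9 (0.937), Slc7a2 (0.937), Ifi27l2b (0.931) and Tgfb1i1 (0.93). Acta1 and Myl9 encode an actin and a myosin light chain, and Vcl and Tgfb1i1 proteins of focal adhesions. Acta1 may share reads with other actin genes. Limma with the block called Acta1 (adjusted p = 0.00144), Myl9 (adjusted p = 0.000313) and Tgfb1i1 (adjusted p = 0.00419) higher in MICs. Within the set, Postn (0.892) and Pdgfrb (0.902) followed the mean of the other 9 genes most closely over the 6 libraries, and Pdgfra (-0.53), Mfap5 (-0.25) and Pdpn (-0.03) did not follow it.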

How the data were processed

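RNA was sequenced from 3 MIC and 3 non-MIC libraries. The authors used a stranded mRNA kit, mapped reads against the transcriptome of the mouse (GRCm38/mm10) and obtained gene-level counts. The deposited signal is these counts after scaling by the authors to library totals. The study's methods name a Bowtie2/samtools pipeline and the submitters' processing notes name STAR and HTSeq, without versions. Values were whole multiples of 1 read, within 0.01 of a read, for at least 99.97% of the values of a library, and dividing by that step gave the recovered reads. Every gene had a value above 0 in at least 3 libraries, and no further filter was used. Symbols and exon lengths came from GENCODE vM21 (GRCm38), which held 22161 of 22310 identifiers.

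In R 4.3.3, limma 3.58.1 was fitted to all genes together, as log2(value + 1), with a mean-variance trend and Benjamini-Hochberg adjustment at 0.05. The study ranked genes without pairing, so the fit without a block came first. After the group means were subtracted, the MIC and the non-MIC library of a number had correlations of 0.573, 0.668 and 0.746 and those of different numbers -0.536 to -0.194, so the numbers were taken as pairs from the data, since the labels do not state a pairing. Recovered reads were tested with edgeR 4.0.16 (quasi-likelihood) and DESeq2 1.42.0 as alternatives. Procedures were tested on simulated data. Exact intervals of read ratios used scipy 1.17.1. Named genes were the 10 genes, the gate genes, and from each further list the 3 with the most reads and any called by limma with or without the block, and the 10 genes outside the lists most correlated with the members' mean. Exceptions are marked in the text, and some genes of the further lists are not reported here. Members and lists were chosen with earlier results of these data known.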

Additional observations from a re-analysis of the deposited data

How the results depend on the processing

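Over the whole table, limma without a block called 0 genes, and so did both other pseudocounts, the filter at the median, TMM factors, quantile normalization, limma without a trend and edgeR without a block. The replicate block gave 29 genes in limma, 32 with TMM factors as well, 315 in edgeR and 133 in DESeq2, and DESeq2 without a block gave 1. Leaving out 1 library gave 0 genes, and with the block, leaving out pair 1, 2 or 3 gave 11, 59 and 0 in limma and 33, 489 and 783 in edgeR. Of the 10 fibroblast genes, 0 were called without the block in any of these, and with the block 1 in limma, 1 with TMM factors, 4 in edgeR and 2 in DESeq2 (Postn and Cxcl12), with between 0 and 4 when 1 library or pair was left out. TMM factors with the block and edgeR with a pair left out were chosen after seeing the data. With a pair left out, 1 residual degree of freedom is left per gene.

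Of 235 single-gene values under the alternatives, 204 kept direction and side of the threshold, 19 passed it and 12 changed sign. The sign changed when 1 library was left out for Pdgfra (-0.089 to 0.67), Dpt (-0.16 to 0.88), Fap (-0.95 to 0.92) and Mfap5 (-0.0095 to 1.69). With the block, Dpt fell to -0.50 in limma and -1.25 in edgeR without pair 3, and Fap rose to 0.48 and 0.68 without pair 1. The cause was not tested. The filter at the median kept 5 of the 10 genes. Genes under about 10 reads are limited by depth.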

Other observations

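The share of Pdpn among the reads of the set differed more between pair 2 and the other pairs than between populations. Pdpn supplied 70.4% of the reads of the 10 genes in the MIC library of pair 2 and 77.2% in the non-MIC library, against between 18.3% and 22.3% in the other 4 libraries. Postn supplied 54.5% and 44.4% in pair 1, 41.3% and 23.8% in pair 3, and 6.03% and 1.41% in pair 2, MICs first. Cxcl12 lay between 18.5% and 33.2% in all 6 libraries. Pdgfra took 9.75% and 19.4% in pair 3 and at most 2.03% in the others. These shares are given as values, and no difference between them was tested.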
